A study of Homo sapiens with 3 samples.

Results

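The metallothionein genes studied here are MT1A, MT1B, MT1E, MT1F, MT1G, MT1H, MT1M, MT1X, MT2A and MT3. They were chosen by name, through the RefSeq accession printed for each array probe, and comprise 10 of the 22439 genes that could be named on the arrays, measured by 12 probes. RNA was taken from TK-10 cells, a line of human renal cell carcinoma, after 48 h of treatment, and 1 single-colour Agilent array was run for each of 3 conditions. Control cells received 0.1% DMSO, the second culture received cordyceps at 750 μg/ml according to the labels, and the third received sunitinib, a receptor tyrosine kinase inhibitor, at 10 μM. The paper instead describes treatment with cordycepin, a nucleoside of Cordyceps fungi, at another dose, a difference that could not be resolved here, so the array is named cordyceps as labelled. All 3 cultures shared a medium with 10% serum to which, per the labels, 16.7 μM zinc sulfate, 10 μM troglitazone and 10 mM nicotinamide had been added. The control cells thus received zinc, a known inducer of these genes, as well. No zinc-free culture was among the 3 arrays, so no effect of the zinc itself was measured.

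Metallothioneins are very small, cysteine-rich proteins that bind zinc and copper and also capture cadmium and other toxic metals. Zinc raises their transcription through the transcription factor MTF1, which binds short promoter sites called metal response elements, and glucocorticoids and oxidative stress are further known inducers. In the kidney they are best known for holding cadmium in tubule cells. MT2A and the MT1 genes are used in many tissues, whereas MT3 is known from the brain and MT4, a relative that is not among the 10 genes, from stratified epithelium.

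In the RefSeq order of chromosome 16 the family forms 1 cluster, which runs MT4, MT3, MT2A, the pseudogene MT1L, MT1E, MT1M, the pseudogene MT1JP, MT1A, the pseudogenes MT1DP and MT1CP, MT1B, MT1F, MT1G, MT1H, the pseudogene MT1IP and MT1X. Promoter sequences were at hand for 4 of the 10 genes, MT2A, MT1H, MT1X and MT1B, and the 250 bases before each gene start are printed because they hold the sites through which zinc acts on this family. They are taken from RefSeq (GRCh38.p14) and lie at chr16:56608334-56608583 (MT2A), chr16:56669564-56669813 (MT1H), chr16:56682220-56682469 (MT1X) and chr16:56651636-56651885 (MT1B), all on the plus strand. Capitals mark each match to the core of the metal response element, TGCACNC or TGCGCNC, on either strand.
MT2A: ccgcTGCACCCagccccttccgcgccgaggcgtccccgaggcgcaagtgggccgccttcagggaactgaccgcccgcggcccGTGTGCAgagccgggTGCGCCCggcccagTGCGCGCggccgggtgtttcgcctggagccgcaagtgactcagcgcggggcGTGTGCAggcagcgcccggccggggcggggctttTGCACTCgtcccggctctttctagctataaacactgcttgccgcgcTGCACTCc
MT1H: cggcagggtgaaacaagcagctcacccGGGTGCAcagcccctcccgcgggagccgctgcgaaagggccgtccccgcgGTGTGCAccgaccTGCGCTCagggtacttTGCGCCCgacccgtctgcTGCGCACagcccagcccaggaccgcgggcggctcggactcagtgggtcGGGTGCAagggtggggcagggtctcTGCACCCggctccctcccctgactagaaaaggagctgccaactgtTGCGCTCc
MT1X: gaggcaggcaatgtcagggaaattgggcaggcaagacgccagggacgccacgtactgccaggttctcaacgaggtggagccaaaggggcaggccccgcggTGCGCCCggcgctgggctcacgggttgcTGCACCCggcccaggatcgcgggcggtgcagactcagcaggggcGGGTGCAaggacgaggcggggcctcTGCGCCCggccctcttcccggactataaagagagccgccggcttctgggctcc
MT1B: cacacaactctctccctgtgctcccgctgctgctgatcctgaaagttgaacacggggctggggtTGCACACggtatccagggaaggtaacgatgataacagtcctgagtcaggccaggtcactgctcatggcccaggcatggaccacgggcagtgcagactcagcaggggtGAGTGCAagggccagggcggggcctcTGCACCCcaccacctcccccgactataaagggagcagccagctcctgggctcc

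Over the whole window of 300 bases, which also takes in 50 bases after the start, the core was found 8 times in MT2A (7 of them in the printed bases), 8 times in MT1H, 4 times in MT1X and 3 times in MT1B. Of the 35116 promoters in the table, 29.6% held at least 1 core, 2.30% at least 3, 0.601% at least 4 and 0.0199%, or 7 promoters, at least 8. The windows of MT2A, MT1H, MT1X and MT1B were 72.0%, 68.3%, 67.0% and 60.3% G and C, against a median of 58.7% over all promoters. Counted from the gene start, a core on the strand of the gene began at position −53 in MT1H, MT1X and MT1B and at −54 in MT2A. The next core upstream lay on the opposite strand in all 4 promoters, with its first base at −78 in MT1H and MT1X, −79 in MT1B and −88 in MT2A. A match of these letters is a description of the sequence and does not show that a factor is bound.

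**Figure D1:**
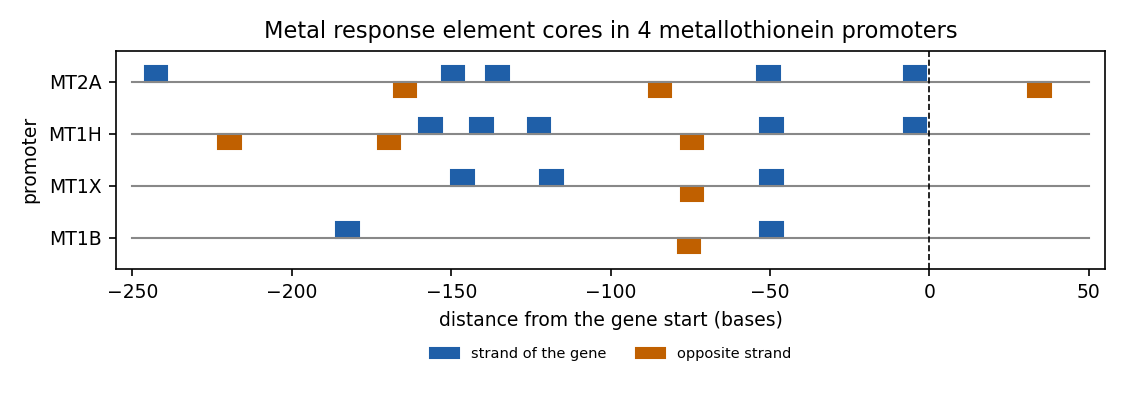
Positions of the metal response element core (TGCACNC or TGCGCNC) in the promoters of MT2A, MT1H, MT1X and MT1B, as the distance in bases from the gene start, with cores on the strand of the gene above each line and cores on the opposite strand below it. MT2A and MT1H hold 8 cores each, MT1X 4 and MT1B 3, and all 4 promoters share a core that begins at position −53 or −54.

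Of the 10 genes, 9 were well above background, by the criterion of the scanner software, on the control and cordyceps arrays and 8 on all 3 arrays, and 1, MT1H, on none. No member differed more than 2-fold between the cordyceps and control arrays, and 1, MT1G, was more than 2-fold lower on the sunitinib array. Levels are given as processed signal, the spot intensity after background subtraction, on a linear scale that is not adjusted between arrays. Differences are log2 ratios of 2 arrays after each signal was divided by the 75th percentile of its own array, which was 165 on the control array, 138 on the cordyceps array and 78.3 on the sunitinib array. The sunitinib array was thus dimmer as a whole, at 47.5% of the control array by this percentile. With 1 array per condition there was no replicate, so no p-value could be given, and each ratio was set against the 95% limit of the error that the software reports for the spots, which covers technical error only. Fewer cells that express a gene and less RNA per cell cannot be told apart in such bulk RNA.

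MT2A, an isoform used in most tissues, gave a processed signal of 173007 on the control array, 165081 on the cordyceps array and 140766 on the sunitinib array. The order of the unscaled signals was therefore control, cordyceps, sunitinib. No spot was saturated on any array, and the software's limit of saturation was 779149. After scaling the order was turned around, and the log2 ratio to control was 0.19 ± 0.20 (technical error) for cordyceps and 0.78 ± 0.20 for sunitinib. The former lay within its 95% limit of 0.40, the latter beyond it, and sunitinib exceeded cordyceps by 0.59. The sunitinib ratio was scaling-dependent: it was −0.02 with quantile normalization and −0.30 with the unscaled series matrix values.

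MT1X, a further widely used isoform, had signals of 1609 on the control array, 1536 on the cordyceps array and 948 on the sunitinib array. Its log2 ratios to control were 0.19 for cordyceps and 0.31 for sunitinib, each with a 95% limit of 0.40. The 3 scaled levels of MT1X did not differ beyond this limit.

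MT1A gave signals of 45442, 44268 and 30678 on the control, cordyceps and sunitinib arrays. Its log2 ratio was 0.22 for cordyceps and 0.51 for sunitinib, so that only sunitinib passed the limit of 0.40 against control, while cordyceps did not differ beyond it from either of the other arrays. The sunitinib ratio of MT1A depended on the scaling, at 0.18 with median scaling, 0.05 with quantile normalization, 0.10 with normexp correction and −0.57 unscaled. MT1M gave signals of 12817, 9406 and 6797 on the same 3 arrays. Its log2 ratios, −0.19 for cordyceps and 0.16 for sunitinib, lay within the limit of 0.40.

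MT1B and MT1E were each measured by 2 probes. The MT1B probe with the higher signal read 47886 on the control array, 44550 on the cordyceps array and 32300 on the sunitinib array. Its log2 ratios were 0.15 for cordyceps and 0.51 for sunitinib, whereas the other MT1B probe gave 0.18 and 0.22. The sunitinib ratio of MT1B thus passed the technical limit of 0.40 by 1 probe and not by the other, and that of the first probe was −0.57 unscaled. The MT1E probe with the higher signal read 47183, 42172 and 28759 on the control, cordyceps and sunitinib arrays. It gave log2 ratios of 0.09 for cordyceps and 0.36 for sunitinib, and the other MT1E probe gave −0.07 and 0.26. All 4 values of MT1E lay within technical error.

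MT3, known as a growth inhibitory factor of the brain, was well above background on each array, with signals of 2104 on the control array, 1605 on the cordyceps array and 1327 on the sunitinib array. Its log2 ratio was −0.13 for cordyceps and 0.41 for sunitinib, and the latter passed its limit of 0.40 narrowly but was 0.08 with median scaling and −0.66 unscaled. Signals of different probes cannot be set against each other as amounts of RNA, so the level of MT3 relative to MT1 or MT2A was not assessed.

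**Figure D2:**
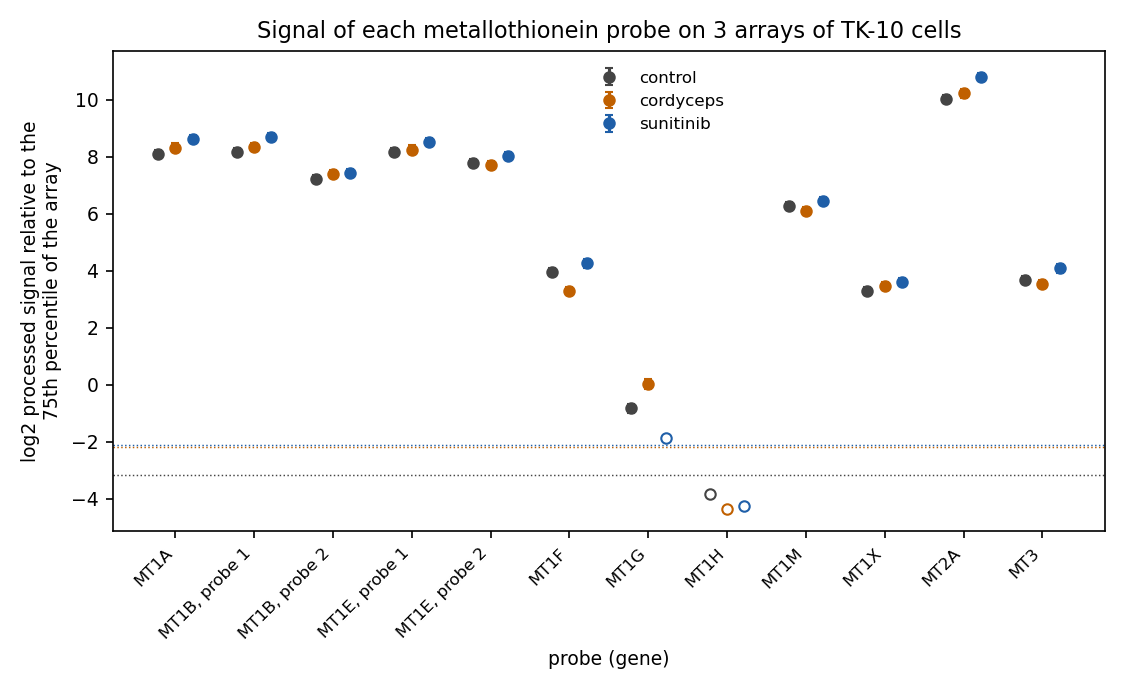
log2 processed signal of each of the 12 metallothionein probes, relative to the 75th percentile of the array, on the control, cordyceps and sunitinib arrays (1 array each). Bars, mostly smaller than the points, are the technical error of the signal, open points are not well above background, dotted lines mark the lowest signal well above background on each array, and heights of different probes are not comparable as RNA amounts. MT1H lies below the dotted lines on all 3 arrays, and MT1G is the only other gene with an open point, on the sunitinib array.

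MT1F was the one member whose scaled level on the cordyceps array lay below the control level by more than technical error. Its signal was 2557 on the control array, 1363 on the cordyceps array and 1502 on the sunitinib array. The log2 ratio of cordyceps over control was −0.65 ± 0.20 (technical error), or 1.57-fold lower, which did not reach 2-fold. Among the 13030 genes well above background on both arrays, 6.82% had a lower ratio. Against the median ratio of the family on the same arrays, the difference of MT1F was −0.80, a value that scaling an array by a factor cannot change. It ran from −0.82 to −0.76 over all processing settings, and only quantile normalization, normexp correction and averaging the probes of a gene moved it. For sunitinib the log2 ratio of MT1F to control was 0.31, within the limit of 0.40, which differed from the family median by −0.08. The sunitinib array exceeded the cordyceps array by 0.96 for MT1F, and here the family median was 0.35. That value was scaling-dependent in size, from 0.14 unscaled to 1.08 with quantile normalization.

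MT1G, the neighbour of MT1F, departed in the other direction on the cordyceps array. Its only probe gave a signal of 93.2 on the control array, 140 on the cordyceps array and 21.6 on the sunitinib array. The log2 ratio of cordyceps over control was 0.85 ± 0.23 (technical error), which passed the limit of 0.46 but not 2-fold, and 96.0% of genes measured on both arrays had a lower ratio. It stayed positive under all processing alternatives, from 0.59 to 1.07. Its sunitinib signal was not well above background. Taken at that signal, MT1G was 2.05-fold lower than on the control array and 3.68-fold lower than on the cordyceps array. These log2 ratios, −1.03 and −1.88, each had a 95% limit of 0.79. They are not bounds, since the probe's own signal of 21.6 exceeds 18.3, the lowest sunitinib signal to pass the background criterion. The difference from control is close to the 2-fold limit. With normexp background correction the log2 ratio was −0.07 against control and −0.70 against cordyceps, neither past 2-fold. The accession of the probe, NM_001301267, is 1 of 2 RefSeq transcripts of MT1G, and the other was matched by no probe.

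MT1H did not pass the background criterion on any of the 3 arrays, with signals of 11.6 on the control array, 6.70 on the cordyceps array and 4.15 on the sunitinib array. No ratio is given for it. Its promoter holds as many cores as that of MT2A, as printed above, and this comparison is one of sequence and detection only.

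Counted over the family, 0 of the 9 genes compared were more than 2-fold higher or lower on the cordyceps array, where 5.76% of the 14785 genes compared were (3% higher and 2.75% lower). With sunitinib 0 of 9 were more than 2-fold higher, against 6.49% of 14908 genes, and 1 of 9 was lower, against 6.53% (13% of genes in either direction). Past the smaller technical limit, 1 gene was higher (MT1G) and 1 lower (MT1F) of the 9 on the cordyceps array, against 15.6% and 13.8% of genes measured on both arrays (29.4% in either direction). Past the same kind of limit, 4 genes were higher on the sunitinib array (MT1A, MT1B, MT2A and MT3) and 0 lower of the 8 measured on both arrays, against 22.9% and 22.3% of genes (45.3% in either direction). Of these 4 genes, only MT3 (0.44) was above 0.40 with quantile normalization and only MT2A (0.44) with median scaling, none was with normexp correction, and all 4 were negative unscaled, from −0.66 (MT3) to −0.30 (MT2A). Set directly against the cordyceps array, the sunitinib array had 0 of 9 genes more than 2-fold higher, against 7.63% of 13888 genes, and 1 lower (MT1G), against 9.54% (17.2% in either direction). Past the technical limit in that comparison were 3 of 8 genes, MT1F, MT2A and MT3, all higher on the sunitinib array, where 24.6% of genes were higher and 25.5% lower (50.1% in either direction). MT2A and MT3 turned to −0.23 and −0.27 unscaled in that comparison and were 0.036 and −0.0084 with median scaling, whereas MT1F stayed positive in all settings.

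**Figure D3:**
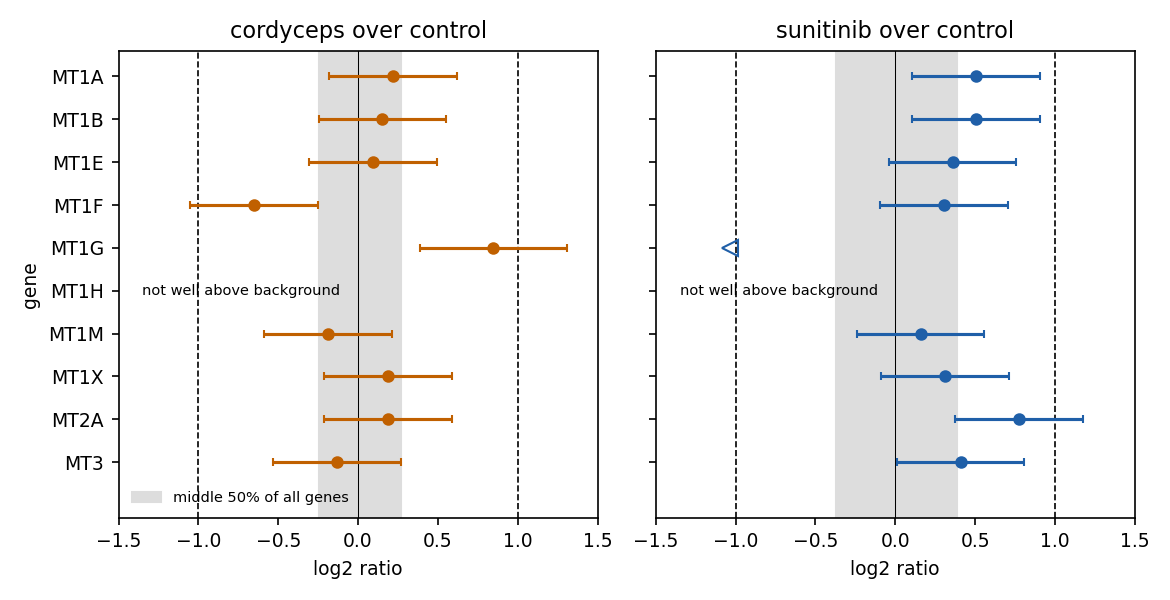
log2 ratio of each metallothionein gene on the cordyceps array and the sunitinib array over the control array. Bars are the 95% limit of the technical error, dashed lines mark 2-fold, and the grey band holds the middle 50% of all genes measured on both arrays. The open triangle is MT1G, whose sunitinib signal was not well above background. MT1F (−0.65) and MT1G (0.85) stand apart on the cordyceps array, and MT2A (0.78) is the highest on the sunitinib array with this scaling, where MT1G is at −1.03.

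The median log2 ratio of the 9 genes was 0.15 on the cordyceps array and 0.36 on the sunitinib array, beside a median of 0.00 over all genes in both comparisons, but these positive medians turned to −0.10 and −0.71 with the unscaled series matrix values and, for sunitinib, to −0.011 with normexp correction. On the unscaled signals, the 8 measured genes other than MT1G stood at 53.3% (MT1F) to 97.4% (MT1A) of control on the cordyceps array. They stood at 53.0% (MT1M) to 81.4% (MT2A) of control on the sunitinib array, all above the 47.5% at which the 75th percentile of that array stood. The part of the lower total signal of the sunitinib array in these ratios was not tested. Relative to the median of all genes under the same processing, the family median lay between −0.02 and 0.19 on the cordyceps array and between 0.05 and 0.38 on the sunitinib array over all settings. The lowest of these for sunitinib, 0.05 and 0.06, came with quantile normalization and normexp correction.

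The ratios of the 9 genes ran from −0.65 (MT1F) to 0.85 (MT1G) on the cordyceps array, where 7 of 9 lay within technical error of control. With sunitinib they ran from −1.03 (MT1G, not well above background on that array) to 0.78 (MT2A). The 8 genes measured on both arrays lay between 0.16 and 0.78. MT1G was thus the highest member in 1 comparison and, at a signal not well above background, the lowest in the other. With normexp correction MT1M (−0.16) was below MT1G (−0.07) on the sunitinib array. The spreads were not compared by a test, since genes are not replicates.

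**Figure D4:**
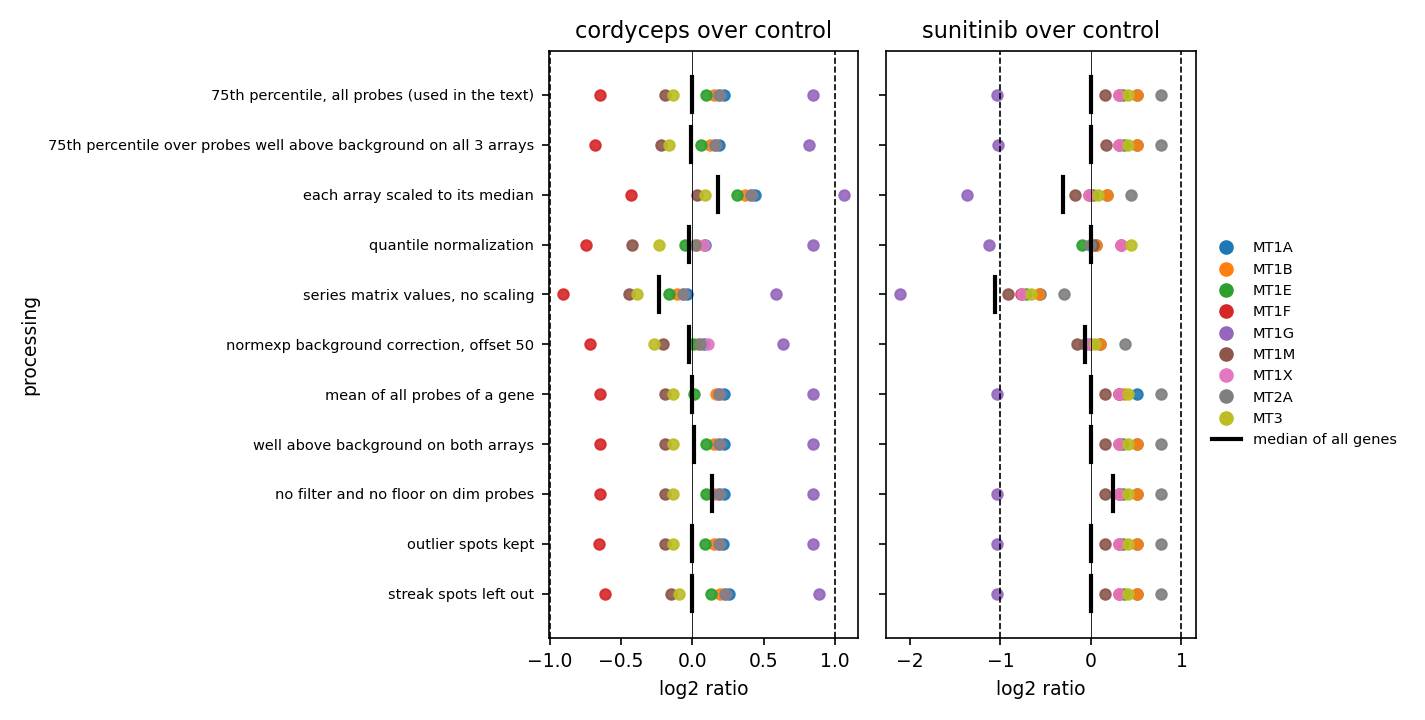
log2 ratio of each of the 9 metallothionein genes compared (coloured points) under the processing used in the text and 10 alternatives, for the cordyceps array (left) and the sunitinib array (right) over the control array, with a black bar at the median of all genes and dashed lines at 2-fold. MT1F stays lowest and MT1G highest on the cordyceps array in every row, an order that scaling an array by a factor cannot change. On the sunitinib array most points lie right of 0 in some rows, and all lie left of it with the unscaled series matrix values (−0.71 at the family median).

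Relatives of the 10 genes gave values of the same kind. Of 9 further family names, 5 had a probe, and MT1L, a transcribed pseudogene, and MT1HL1, a gene derived from MT1H outside the cluster, were well above background. MT1L had signals of 56226, 55518 and 36999 on the control, cordyceps and sunitinib arrays and log2 ratios of 0.24 and 0.47. MT1HL1 had signals of 20720, 20207 and 12750 and log2 ratios of 0.22 and 0.37. MT4, MT1DP and MT1IP failed the background criterion throughout. Coding sequences of this family are closely alike, and how far a probe for MT1A, MT1B, MT1E or MT1L also reads RNA of another member was not tested, so these similar ratios are not separate evidence for each gene.

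MTF1, the zinc-sensing factor that activates metallothionein genes, had signals of 202 on the control array, 179 on the cordyceps array and 103 on the sunitinib array. Its log2 ratios were 0.08 and 0.10, both within a limit of 0.42. SLC30A1, the zinc exporter of the cell membrane and itself a known MTF1 target, had signals of 337, 300 and 290. Its log2 ratio was 0.09 for cordyceps and 0.86 for sunitinib, the latter past its limit of 0.41 but not 2-fold, and −0.22 with the unscaled series matrix values. The 300 bases around the SLC30A1 start held 2 metal response element cores, and those around the MTF1 start held 0.

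Among the 10 zinc exporters, which carry zinc out of the cell or into vesicles, 6 could be compared with control on each array and 0 passed 2-fold. Their median log2 ratio was 0.00 for cordyceps and 0.24 for sunitinib. SLC30A5 was the highest on the cordyceps array (0.27) and the lowest on the sunitinib array (−0.55), and SLC30A6 was the lowest on the cordyceps array (−0.38). Of the 14 zinc importers, 12 could be compared, and 1, SLC39A14, was more than 2-fold lower on the sunitinib array, with a log2 ratio of −1.09 that stayed past 2-fold in all settings. SLC39A14 carries zinc and iron into cells. On the cordyceps array 0 of the 12 passed 2-fold, with SLC39A4 highest (0.35) and SLC39A14 lowest (−0.40). SLC39A4 was also the highest importer with sunitinib (0.39, but −0.68 unscaled).

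Of 13 genes of copper handling, the other metal that metallothioneins hold in cells, 1 was more than 2-fold higher on the cordyceps array. This was COX17, a chaperone that delivers copper to cytochrome c oxidase, with signals of 5218 on the control array, 9167 on the cordyceps array and 1680 on the sunitinib array. Its log2 ratio was 1.07 for cordyceps, past 2-fold in 8 of 11 settings, and −0.56 for sunitinib. The lowest on the cordyceps array was CCS (−0.50), the copper chaperone of SOD1. With sunitinib 0 of 13 passed 2-fold, from SCO1 (−0.74) to SLC31A2 (0.32).

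Among 7 genes of metal-responsive and metallothionein transcription, only USF1 passed 2-fold on the cordyceps array, with a log2 ratio of 8.47. Its probe lay in a bright streak on that array, and with the streak left out KAT2A was the highest (0.51) of the 6 remaining genes and 0 passed 2-fold. None of the 12 metallothionein probes lay in the streak. EP300 was the lowest on the cordyceps array (−0.58). With sunitinib 0 of 7 passed 2-fold, from MTF2 (−0.56) to SP1 (0.52) among those measured on both arrays.

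Genes that metals and oxidants are known to induce beside metallothioneins had a median log2 ratio of 0.46 on the cordyceps array over 11 genes compared, against 0.15 for the metallothioneins and 0.00 for all genes, and 1 of the 11 passed 2-fold there. SRXN1, which restores oxidized peroxiredoxins, was the highest, at a log2 ratio of 1.00 that was past 2-fold in 6 of 11 settings, and GCLM, of glutathione synthesis, the lowest (−0.23). HMOX1, which breaks down heme, had signals of 5092, 6879 and 1706 on the control, cordyceps and sunitinib arrays and log2 ratios of 0.69 and −0.50. With sunitinib the median of the list was −0.01 and 1 of 11 passed 2-fold. HSPA1B, a heat shock protein gene nearly identical in sequence to HSPA1A, was the highest (1.08), and TXNRD1, the thioredoxin reductase gene, the lowest (−0.51). With the unscaled series matrix values HSPA1B was at 0.00 on the sunitinib array. Both medians of this list are given with the scaling used in the text only. Unscaled, the median of all genes was itself −0.24 on the cordyceps array and −1.06 on the sunitinib array. HSPA6, well above background only on the control array, entered both list medians as a ratio of 0.

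Among 12 glucocorticoid-responsive genes, 0 were more than 2-fold different on the cordyceps array, with a median of −0.02. FKBP5 (0.99) was the highest and TSC22D3 (−0.81) the lowest, and both were near the limit: FKBP5 was past 2-fold in 3 of 11 settings, among them that without the streak (1.03), and TSC22D3 in 1. With sunitinib 1 was more than 2-fold higher, GLUL (1.26), the glutamine synthetase gene, and the median was −0.07. GLUL had a log2 ratio of 0.19 with the unscaled series matrix values.

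**Figure D5:**
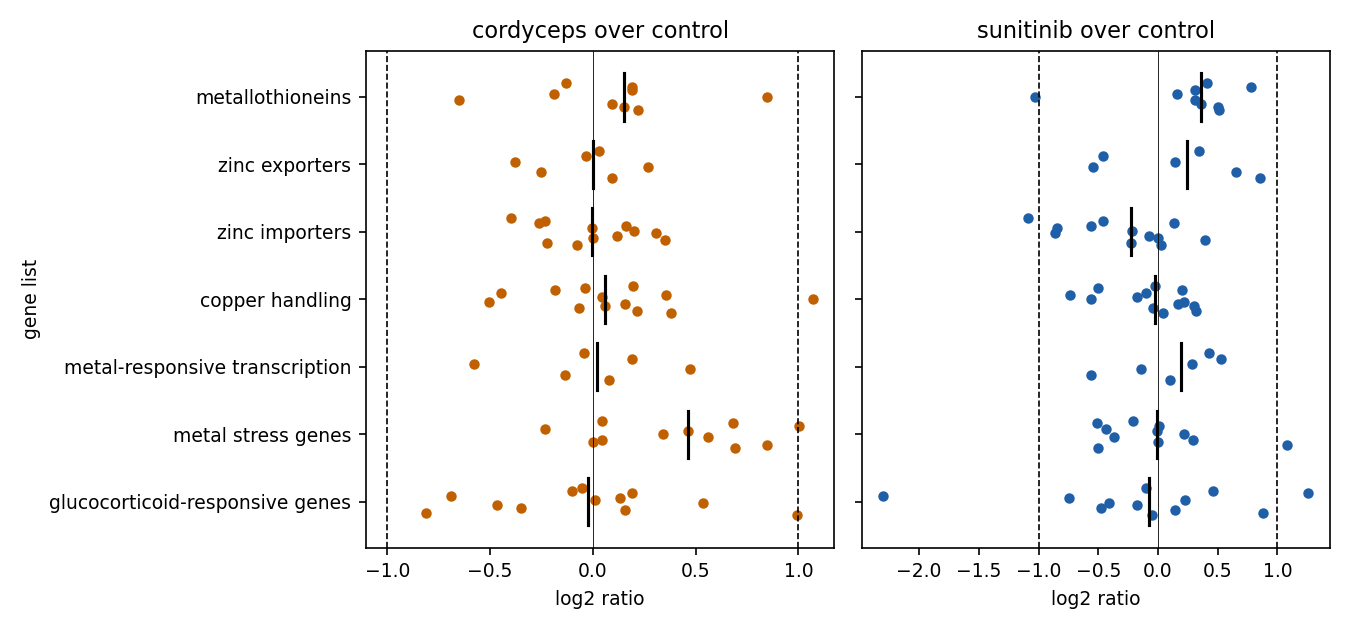
log2 ratios on the cordyceps array (left) and the sunitinib array (right) over the control array for the metallothioneins and 6 lists of metal, stress and hormone response genes, 1 point per gene compared (USF1, in the bright streak, is left out), with a black bar at each median and dashed lines at 2-fold. The metallothionein medians are 0.15 and 0.36 with this scaling (−0.10 and −0.71 unscaled), and the metal stress genes have the highest median on the cordyceps array (0.46, given with this scaling only).

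Genes outside the family lay close to its median log2 ratios, while the members themselves were spread around them. Of 12463 genes well above background on all 3 arrays, the 5 nearest to the median pair of log2 ratios of the 8 members measured there (0.12 for cordyceps and 0.38 for sunitinib) were TSC22D1, CSNK2B, TBC1D14, HSF1 and STK24, at Euclidean distances of 0.0026 to 0.012. Of the members, MT1E was nearest to that median pair, with 44 genes outside the family nearer still, and MT1F farthest, with 7692 nearer. The measure rests on 2 ratios that share the control array.

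Of the renal epithelial markers, 11 of 12 had a probe, and 8 were well above background on the control array and 9 on each treated array, among them PAX8, PAX2, KRT8, KRT18 and EPCAM, while CUBN and CA9 were on none. The median log2 ratio of the renal list was −0.20 for cordyceps and 0.36 for sunitinib. CDH16, a kidney cadherin, had a log2 ratio of −2.23 for cordyceps and −0.49 for sunitinib, and PAX8, a kidney transcription factor, had −0.87 and −0.46. Of the markers of blood, endothelial and fibroblast cells, 11 of 12 had a probe, and 6, 5 and 3 were well above background on the control, cordyceps and sunitinib arrays. The summed signal of this list was 6665, 1559 and 559. For both marker lists 1 probe per gene was counted, that chosen for cordyceps over control. By another probe PTPRC was well above background on the sunitinib array too, and that signal is not in the 559. The fibroblast genes COL1A1, DCN and LUM were well above background on the control array and had log2 ratios of −2.05, −1.80 and −1.85 with cordyceps. With sunitinib COL1A1 was 6.55-fold lower, DCN 10.8-fold lower and LUM at least 9.92-fold lower. PTPRC, a blood cell marker, went the other way with sunitinib by that other probe, at 5.23-fold higher. Its counted probe showed no such rise: it was well above background on the control array (26.6) and not on the sunitinib array (14.3). VWF had a log2 ratio of −0.14 with cordyceps and was at least 2.51-fold lower with sunitinib. CDH5 had log2 ratios of −0.18 and 0.23. Of the 6 genes of this list compared, 0 were more than 2-fold higher and 3 lower with cordyceps. With sunitinib 1 was higher and 4 were lower, against 6.49% and 6.53% of all genes. CD3E, HBB, PECAM1 and COL3A1 failed the background criterion throughout. These markers differed between the arrays along with the conditions, and their part in the metallothionein ratios was not tested.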

How the data were processed

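Gene expression was measured on 1 Agilent array for each of 3 conditions. The authors deposited the scanner software's spot files (Feature Extraction, version 11.5.1.1), whose processed signal is a linear intensity after the software's background correction and comes with an error. This error was 10.0% of the signal for the members compared, other than MT1G (11.4% to 25.5%). A further deposited table holds intensities, of which 99.9% equalled the mean processed signal of a probe to within 0.01%, on a linear scale and not scaled or centred between arrays (medians of 14.4, 10.3 and 8.58 on the control, cordyceps and sunitinib arrays). The header names hg19. Control spots and spots flagged as outliers were left out, repeated spots were averaged, and log2 signals were taken relative to the 75th percentile over all probes (58201, of which 45.5%, 37.8% and 38.3% were well above background on the 3 arrays). A RefSeq table of GRCh38.p14, used for names and gene order, named 31104 probes. Where a gene had several probes, the one with the highest mean signal on the pair of arrays was used. Genes were compared if either array of a pair passed the background criterion. A dim side below the lowest signal well above background was raised to it, giving a bound, and otherwise kept its own signal. Where the side well above background was then not the higher, the ratio was set to 0 and the gene still counted as compared. HSPA6 and SLC39A5 were such cases in both comparisons with control, and PTPRC in that of cordyceps. Among genes well above background on both arrays the median log2 ratio to control was 0.014 for cordyceps and −0.00033 for sunitinib. Calls needed more than 2-fold. The streak was found as windows of 7 by 7 spots with a median log2 excess over 1.0 and covered 570 spots. The genes named are the members, MTF1, SLC30A1, the highest and lowest measured gene of each list and the 5 genes nearest in pattern, and other genes named were chosen after their values were seen. The members and lists were chosen with earlier results of these data known. Arrays limit precision by their number. Python 3.11.15, numpy 2.4.6, pandas 2.3.3, R 4.3.3 and limma 3.58.1 (normexp, offset 50, on median signals, since no mean signal was used) served for the calculations, which were tested on simulated data. The 10 alternatives are given in the closing section. Protein sequences were not used here. Values of some list genes are not reported here. The paper's methods describe a red over green ratio and a test across arrays, and these single-colour arrays without replicates allow neither.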

Additional observations from a re-analysis of the deposited data

How the results depend on the processing

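The number of metallothionein genes past 2-fold on the cordyceps array was 0, and 1 (MT1G) with each array scaled to its median. On the sunitinib array it was 1, and 0 with normexp correction or with only genes measured above background on both arrays of a pair, which leaves MT1G out. The family median on the cordyceps array, 0.15, became 0.37 with median scaling and −0.10 with the unscaled series matrix values. On the sunitinib array, 0.36 became 0.028 with median scaling, 0.053 with quantile normalization, −0.71 with the series matrix values and −0.011 with normexp correction. The median of all genes itself moved from 0.00 to 0.18 and −0.24 on the cordyceps array, and to −0.31 and −1.06 on the sunitinib array, with median scaling and the series matrix values. The other alternatives for the counts and medians stayed within the limits set. Of 268 values of single members under an alternative, 79 moved by more than their technical error, and no called value changed sign. For sunitinib over cordyceps, the family median of 0.35 became −0.20 with median scaling, 0.020 with quantile normalization, −0.47 unscaled and 0.050 with normexp. The MT1G call was lost with normexp and left out where both arrays had to be above background, and quantile normalization put MT1F past 2-fold (1.08). Over all genes, 444 higher and 407 lower on the cordyceps array became 745 and 223 with median scaling, 274 and 832 unscaled, 192 and 187 with normexp and 1699 and 972 with no filter on dim probes. For sunitinib, 968 and 974 became 532 and 1937, 162 and 8005, 330 and 842, and 6216 and 1514. Leaving the streak out moved no member across 2-fold. No paired analysis was possible because each condition has 1 array, and no replicate could be left out.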
